A study of Homo sapiens with 4 samples.

Results

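The 10 genes described here encode receptors of the interleukin 6 (IL6) family, a related receptor of the IL10 and IL20 family, and the kinases, transcription factor and feedback inhibitor through which these receptors signal. They were taken by symbol from the 23228 genes in the count tables: IL6R, IL11RA, LIFR, OSMR, IL6ST, IL20RB, JAK1, JAK2, STAT3 and SOCS3. The group was chosen by the siRNA fold changes of IL6R and IL20RB in these libraries, so the siRNA values of these 2 genes are a description without a test. All 10 passed the filter on low counts, which left 13712 genes.

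Cytokines of the IL6 family bind a receptor chain of their own and then engage gp130, the shared signalling chain encoded by IL6ST. JAK kinases bound to these chains phosphorylate STAT3, which enters the nucleus and switches on targets including SOCS3, and SOCS3 protein in turn blocks gp130 and the JAKs. IL6R is also released from the cell surface by proteases, and the soluble form can act on cells that carry only gp130.

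RNA was sequenced from A673, a human cell line of Ewing sarcoma with an EWSR1-FLI1 fusion, as 1 library for each siRNA and time. The groups were cells 48 h after transfection with an siRNA against FAT4 (siFAT4), cells 48 h after a control siRNA labelled as scrambled, and the same pair at 24 h. All cells grew in DMEM with 10% fetal bovine serum and received RNAiMAX. FAT4 encodes a large atypical cadherin, and the series asked how its depletion alters gene expression. It is 1 cell line, the number of siRNA sequences is not given in the sources used here, and no group has a second culture, so every difference below lacks a replicate check.

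Counts assigned to genes summed to between 15196813 and 22625833 per library, and 3 counts, the most that an observed 0 allows, stood for 0.134 to 0.203 CPM (counts relative to the library total, scaled by trimmed mean of M values, TMM). FAT4 itself was at 60.2 CPM with FAT4 siRNA and 149 CPM with control siRNA at 48 h, and at 71.8 and 165 CPM at 24 h. Of 9 Ewing sarcoma markers, 8 were detected and their summed level was 3920 to 4740 CPM, of which CCND1 made up 2690 to 3380 CPM. Of these 8, edgeR called 2 higher and 3 lower for the siRNA (62.5%, against 25.9% of all genes tested). DESeq2 called 1 of the 8, against 1234 of all 13712 genes tested. In CPM, FLI1, EWSR1, STEAP1, CCND1 and LIPI were higher with FAT4 siRNA at both times, and NR0B1, PRKCB and NKX2-2 were lower. NKX2-2 was at 38.4 CPM with FAT4 siRNA and 86.1 CPM in control at 48 h, and at 52.4 and 76.4 CPM at 24 h. CD99, the ninth, was listed at 0 in all 4 libraries, although it is a defining surface marker of this tumour. Leukocyte markers, of which CD3E was at 0 throughout, summed to 0.704 to 1.12 CPM over 7 genes. Hepatocyte markers summed to 0.0448 to 0.339 CPM over 5 genes, with ALB, SERPINA1 and FGB at 0. Epithelial markers summed to 14.7 to 26.1 CPM over 5 genes, nearly all of it KRT8, and KRT5 was at 0. KRT8 was at 14.6 CPM with FAT4 siRNA and 25.8 CPM in control at 48 h, and at 17.5 and 20.5 CPM at 24 h, and its part in the results below was not tested.

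The signalling chains were all present, and the ligand-binding chains of IL6 and IL11 were scarce. Per kilobase of the longest coding transcript, JAK1, a kinase used by gp130 and by interferon receptors, stood highest at 185 to 208 CPM per kilobase over the 4 libraries. OSMR, the oncostatin M receptor chain, followed at 18.9 to 20.2, LIFR, the leukaemia inhibitory factor receptor chain, at 14.5 to 17.8, STAT3 at 11.4 to 16.2 and IL6ST at 9.21 to 11.5 CPM per kilobase. The ranges of LIFR, STAT3 and IL6ST overlapped their neighbours in this order. JAK2 lay at 3.53 to 4.62 CPM per kilobase, below all of these, and came next by mean level. Below it were IL20RB (0.897 to 6.47), SOCS3 (1.35 to 3.09), IL6R (0.403 to 2.99) and IL11RA, the IL11-binding chain (0.562 to 1.08 CPM per kilobase). SOCS3 was above IL11RA in every library. The ranges of IL20RB and IL6R overlapped each other and those of SOCS3 and IL11RA, so their places were not settled. Lengths came from GENCODE release 29, and the order of all 10 depends on them: with the median coding transcript, 4 of the 10 kept their place.

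The RNAs of IL6 and several related ligands were at or near 0 in these cells. IL6 had 0 counts in every library, as did IL27 and IL31, and OSM had a single read, in control siRNA at 48 h. LIF had 6 and 7 counts at 48 h in FAT4 siRNA and control, and 0 and 6 at 24 h. Of 11 ligand genes, 3 were tested, and edgeR called 0 of them in either comparison after adjustment, and DESeq2 called 0. With an unadjusted p under 0.05 edgeR would have 1 for the siRNA and 0 for time. Over all 13712 genes tested, edgeR called 25.9% for the siRNA and 26.6% for time, and DESeq2 called 1234 and 1176 genes.

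**Figure D1:**
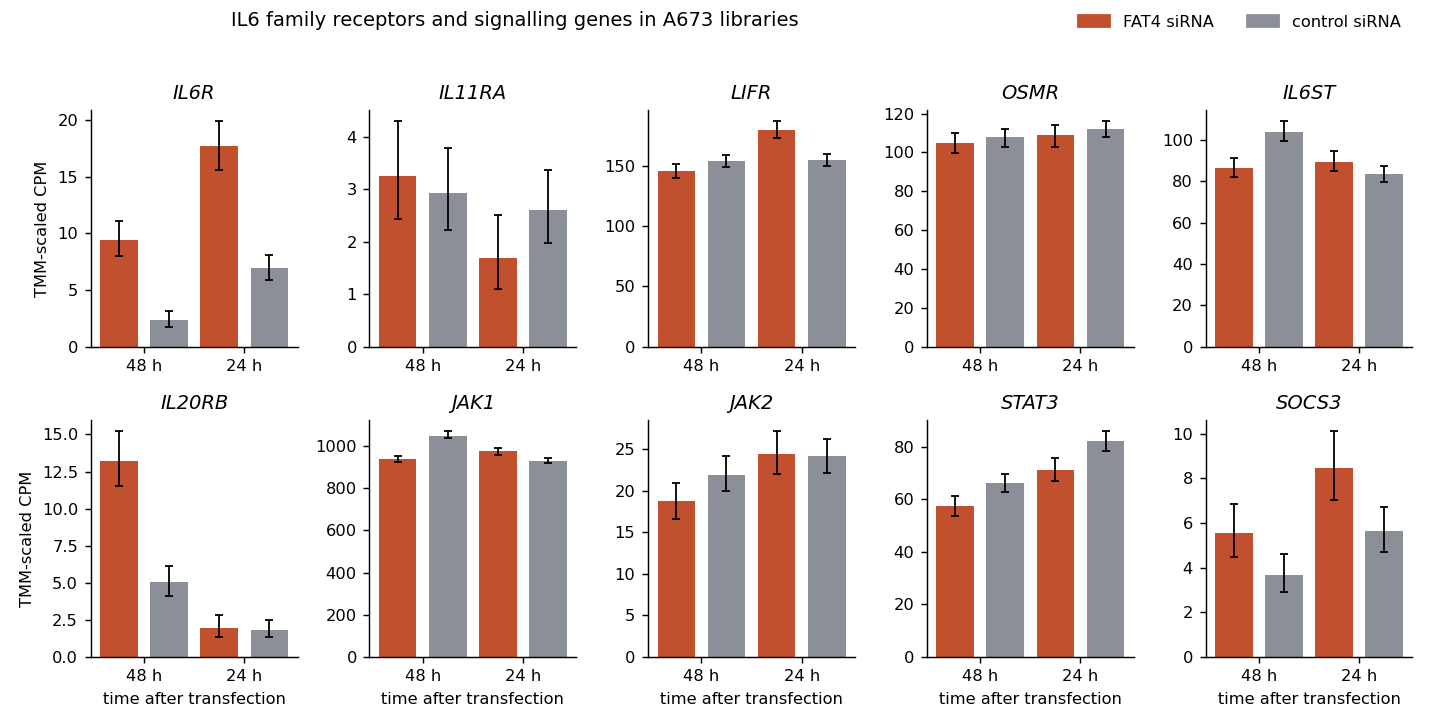
TMM-scaled CPM of the 10 genes in each library, with FAT4 siRNA and control siRNA side by side at 48 h and 24 h. Bars are single libraries and whiskers are exact 95% Poisson intervals for counting error. IL6R is higher with FAT4 siRNA at both times, and IL20RB is high at 48 h.

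IL6R, the IL6-binding chain, was higher with FAT4 siRNA at both times. It had 148 counts (9.46 CPM) with FAT4 siRNA at 48 h, against 48 counts (2.39 CPM) in control. At 24 h it had 261 counts (17.7 CPM) with FAT4 siRNA and 155 counts (6.94 CPM) in control. The 2 FAT4 siRNA libraries were therefore both above the 2 control libraries, and within each siRNA the 48 h library was the lower. Dividing FAT4 siRNA by control CPM gave a ratio of 3.97 at 48 h (95% Clopper-Pearson interval 2.85 to 5.61) and 2.54 at 24 h (2.08 to 3.12). In bulk RNA, fewer expressing cells and less RNA per cell cannot be told apart. These intervals cover counting error only. Over both times the fitted log2 fold change was 1.60 (SE 0.192). The log2 ratio at 48 h exceeded that at 24 h by 0.64, with a counting interval of 0.09 to 1.19. With 1 CPM added the excess was 0.40 and with 5 CPM added 0.05, and this difference was not tested.

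IL6R also differed relative to gp130, its signalling partner. Per kilobase, IL6R stood at 16.7% of IL6ST with FAT4 siRNA and 3.50% in control at 48 h, and at 30.3% and 12.7% at 24 h.

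IL20RB, the shared beta chain of the receptors for IL19, IL20 and IL24, differed between the siRNAs at 48 h. It had 207 counts (13.2 CPM) with FAT4 siRNA and 101 counts (5.02 CPM) in control at 48 h. At 24 h it had 29 counts (1.96 CPM) and 41 counts (1.84 CPM). The 24 h libraries lay close together and below both 48 h libraries. Relative to control, FAT4 siRNA gave a ratio of 2.64 at 48 h (interval 2.07 to 3.38) and 1.07 at 24 h (0.641 to 1.76). The log2 ratio at 48 h exceeded that at 24 h by 1.30, with a counting interval of 0.54 to 2.07, and by 1.18 with 1 CPM added. A model with that interaction leaves no residual, so it has no test.

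The chains with which IL20RB forms a receptor were scarce. IL20RA had 0 counts in all 4 libraries. IL22RA1, its other partner, had 19 counts with FAT4 siRNA and 30 in control at 48 h, and 24 and 37 at 24 h, which is 1.22 to 1.66 CPM. Of 6 ligand genes of the IL10 and IL20 family, none passed the filter, and IL24 and IL19 reached at most 3 and 1 counts in any library. IL20RB shares annotated sequence with its neighbour NCK1 on the same strand, and the counting mode is not given in the sources used here. NCK1 had log2 fold changes of 0.09 between the siRNAs and 0.15 between the times.

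The other 8 genes were tested in the same fit as all 13712 genes. edgeR's quasi-likelihood test with siRNA and time as additive terms called 25.9% of all genes in the siRNA comparison at a Benjamini-Hochberg adjusted p under 0.05, 11.9% higher and 14.1% lower. Of the 8, only SOCS3 was called, and 2 had an unadjusted p under 0.05. DESeq2 called 0 of the 8, against 1234 of all 13712 genes tested. The edgeR share is below the background. These p-values rest on 1 residual degree of freedom and do not measure the spread between cultures.

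SOCS3, the feedback inhibitor, rose with FAT4 siRNA in that fit. It was at 5.56 CPM with FAT4 siRNA and 3.68 CPM in control at 48 h, and at 8.46 and 5.64 CPM at 24 h. Counts behind these values were 87 and 74 at 48 h and 125 and 126 at 24 h. FAT4 siRNA was above control at each time, but FAT4 siRNA at 48 h lay just below control at 24 h. The ratios were 1.51 at 48 h (interval 1.10 to 2.09) and 1.5 at 24 h (1.16 to 1.94), and the log2 fold change was 0.59 (SE 0.217, edgeR adjusted p = 0.0297). DESeq2 did not call it (adjusted p = 0.308), and over all alternatives the adjusted p ranged from 0.002 to 0.545.

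The gp130 chain, its partners and the kinases did not pass the siRNA test. IL6ST was at 86.7 CPM with FAT4 siRNA and 104 CPM in control at 48 h, and at 89.5 and 83.4 CPM at 24 h, with a log2 fold change of -0.08 (SE 0.0980, edgeR adjusted p = 0.583). LIFR was at 146 and 154 CPM at 48 h and at 180 and 155 CPM at 24 h (0.07, SE 0.0928, edgeR adjusted p = 0.643). For both genes the 24 h and 48 h ratios lay on opposite sides of 1. OSMR was the steadiest, at 105 and 108 CPM at 48 h and 109 and 112 CPM at 24 h, with a ratio of 0.971 at each time (interval 0.911 to 1.04 at 48 h).

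JAK1 was at 938 CPM with FAT4 siRNA and 1050 CPM in control at 48 h, and at 976 and 932 CPM at 24 h, and had a log2 fold change of -0.05 (SE 0.0881, edgeR adjusted p = 0.725). JAK2, the second gp130-associated kinase, was at 18.7 and 21.9 CPM at 48 h and at 24.4 and 24.1 CPM at 24 h. STAT3 was lower with FAT4 siRNA at both times, at 57.4 against 66.1 CPM at 48 h and 71.3 against 82.0 CPM at 24 h. Its ratio was 0.868 at 48 h (interval 0.797 to 0.946) and 0.869 at 24 h (0.805 to 0.938), and its log2 fold change of -0.20 (SE 0.103) did not pass the test (edgeR adjusted p = 0.133). IL11RA had few reads, with 51 and 59 counts at 48 h and 25 and 58 at 24 h in FAT4 siRNA and control. At this depth its ratio was bounded only between 0.749 and 1.65 at 48 h and between 0.390 and 1.06 at 24 h. IL11RA shares annotated sequence with GALT on the same strand, and GALT had log2 fold changes of -0.34 between the siRNAs and 0.64 between the times.

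**Figure D2:**
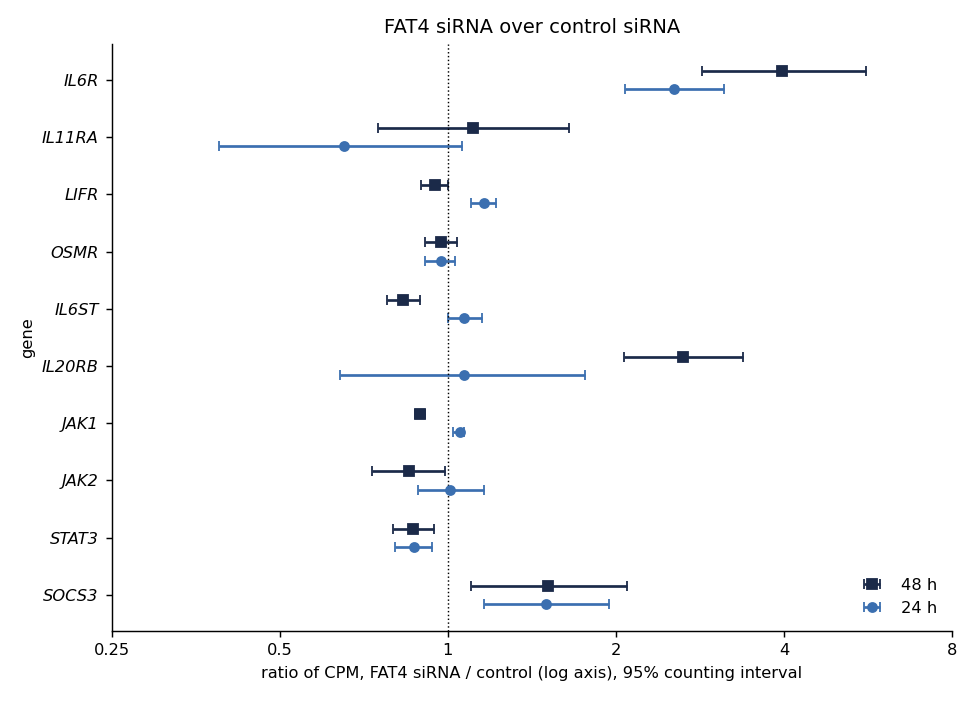
Ratio of CPM in FAT4 siRNA to control siRNA for the 10 genes on a log axis, with squares for 48 h, circles for 24 h and 95% Clopper-Pearson counting intervals. IL6R lies at 3.97 and 2.54, IL20RB at 2.64 and 1.07, and SOCS3 at 1.51 and 1.5, while the other 7 lie between 0.651 and 1.16.

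On the log2 scale of CPM plus 1, at least a 1.5-fold higher level with FAT4 siRNA was reached at 48 h by IL6R and IL20RB, where 4.18% of all tested genes did so, and at 24 h by IL6R, against 2.24% of tested genes. None of the 10 was at least 1.5-fold lower at either time (7.30% and 4.37% of tested genes). IL6R and IL20RB were chosen for this contrast, so the counts carry no weight of their own.

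The group was chosen by siRNA fold changes and not by the comparison of 48 h with 24 h. That comparison moved IL6R and IL20RB in opposite directions. It uses the same libraries as the choice, so the time p-values of IL6R and IL20RB are not independent of the choice. For IL20RB the highest library, FAT4 siRNA at 48 h (13.2 CPM), enters the siRNA and the time fold change alike. edgeR called 26.6% of all genes here, 13.8% higher and 12.8% lower at 48 h. Of the 10 genes, 1 rose and 3 fell.

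IL20RB rose by a log2 fold change of 2.10 over both siRNAs (SE 0.245, edgeR adjusted p = 1.44e-15), and DESeq2 called it too (adjusted p = 6.88e-05). Over all alternatives its adjusted p ranged from 6.13e-17 to 0.137. With FAT4 siRNA it was at 13.2 CPM at 48 h and 1.96 CPM at 24 h, a ratio of 6.75 (interval 4.56 to 10.3). In control it was at 5.02 and 1.84 CPM, a ratio of 2.73 (1.88 to 4.03). This contrast of ratios is the same quantity as the difference of the siRNA ratios above. On the log2 scale of CPM plus 1, at least a 1.5-fold higher level at 48 h was reached by IL20RB and IL11RA with FAT4 siRNA, against 8.42% of tested genes. In control it was reached by IL20RB alone of the 10, against 5.81%.

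IL6R fell by 1.15 on the log2 scale (SE 0.192, edgeR adjusted p = 8.30e-08), again with a DESeq2 call (adjusted p = 0.00358, range over all alternatives 2.16e-09 to 0.520). It was at 9.46 CPM at 48 h and 17.7 CPM at 24 h with FAT4 siRNA, a ratio of 0.536 (interval 0.435 to 0.658). In control it was at 2.39 and 6.94 CPM, a ratio of 0.344 (0.243 to 0.478). IL6R was the only one of the 10 at least 1.5-fold lower at 48 h on the plus 1 scale under either siRNA, against 3.49% of tested genes with FAT4 siRNA and 2.36% in control. Without siRNA in the model neither IL6R (adjusted p = 0.520) nor IL20RB (adjusted p = 0.137) was called.

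STAT3 and its target SOCS3 were both called lower with time. STAT3 fell by 0.31 on the log2 scale (SE 0.103, edgeR adjusted p = 0.0134), with 48 h to 24 h ratios of 0.805 with FAT4 siRNA and 0.806 in control. SOCS3 fell by 0.61 (SE 0.217, edgeR adjusted p = 0.0237), with ratios of 0.658 and 0.652. DESeq2 called neither, with adjusted p = 0.137 for STAT3 and 0.314 for SOCS3. Over all alternatives the adjusted p ranged from 0.000325 to 0.448 for STAT3 and from 0.00539 to 0.479 for SOCS3. SOCS3 does not stand for STAT3 targets in general. Of 21 tested textbook STAT3 targets, SOCS3 included, edgeR called 4 higher and 4 lower with time (38.1%, against 26.6% of all genes tested). Their median log2 fold change was -0.04, and DESeq2 called 4 of them, against 1176 of all 13712 genes tested.

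The remaining 6 genes did not pass the time test. Their log2 fold changes ran from -0.26 for JAK2 to 0.50 for IL11RA. IL6ST had a ratio of 0.968 with FAT4 siRNA and 1.25 in control, and LIFR had 0.812 and 0.992. With a correction for GC content and transcript length, LIFR and JAK2 were called lower at 48 h (log2 fold change -0.28 and -0.35, edgeR adjusted p = 0.00245 and 0.0213).

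**Figure D3:**
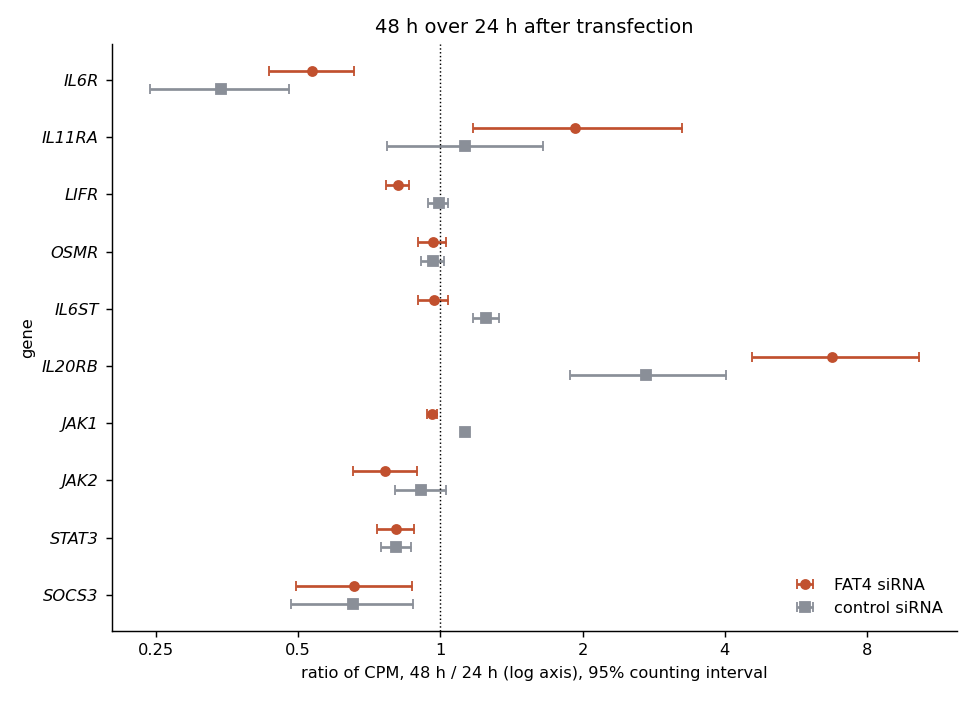
Ratio of CPM at 48 h to 24 h for the 10 genes on a log axis, with circles for FAT4 siRNA, squares for control siRNA and 95% Clopper-Pearson counting intervals. IL20RB lies right of 1 (6.75 and 2.73) and IL6R left of it (0.536 and 0.344) under both siRNAs.

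The sequence of these genes was set beside their values, since over all genes the siRNA ratio varied with base composition. Genes below the lower quartile of transcript GC content had a median log2 siRNA ratio of 0.08 at 48 h and 0.18 at 24 h. Genes above the upper quartile had -0.11 and -0.24. The transcripts of SOCS3 (60.0% GC) lay above the upper quartile of 56.9%, and those of IL6R (51.8%) and IL20RB (50.6%) lay between the quartiles. The GC-poor genes were LIFR (36.2%), IL6ST (36.6%) and JAK2 (39.2%), below the lower quartile of 42.1%. With the correction for GC content and length, IL6R had a siRNA log2 fold change of 1.72 and SOCS3 of 0.78 (edgeR adjusted p = 0.002).

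The words TTGGACT, its overlapping form TGGACTA, and AGCCTTA, picked in an earlier pass over these same ratios, were looked up in the transcripts' 3' UTRs. At 48 h the median log2 siRNA ratio was -0.06 in 2070 genes with TTGGACT or TGGACTA and 0.00 in 10412 without. At 24 h these medians were -0.04 and -0.02. For AGCCTTA the median was 0.06 in 1420 genes with it and -0.02 in 11062 without at 48 h, and 0.08 and -0.04 at 24 h. Since the words were picked from these ratios, the medians are a description and give the words no support. The 3' UTRs of IL6R (4070 bases) and IL20RB (862 bases) held none of them, nor did those of SOCS3, STAT3, JAK1 and IL11RA. TTGGACT or TGGACTA occurred in 3 of the 10 genes, IL6ST, JAK2 and OSMR, and in 16.6% of 12482 tested genes searched. AGCCTTA occurred in IL6ST and LIFR and in 11.4% of genes. Only the TTGGACT and TGGACTA sites are shown, all in members that did not pass the siRNA test. The AGCCTTA sites are not shown, although IL6ST and LIFR did not pass it either. The word is in capitals, 5′ to 3′ from GENCODE release 29 transcripts.
IL6ST, 3' UTR base 5235: taattcttctTTGGACTggtccttggc
IL6ST, 3' UTR base 254: ttgggtggaaTGGACTActccaaggga
JAK2, 3' UTR base 68: cacattgctgTGGACTAttattacata
OSMR, 3' UTR base 867: ttagcatcctTTGGACTctgcagtagg
Over both times all 3 genes had siRNA log2 fold changes between -0.10 and -0.04. Their ratios of FAT4 siRNA to control were 0.832 for IL6ST, 0.852 for JAK2 and 0.971 for OSMR at 48 h. At 24 h they were 1.07, 1.01 and 0.971. The part of these words in any value was not tested.

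STAT-type letters were also searched in RefSeq promoter windows (GRCh38.p14, 250 bases before to 50 after a start). The palindrome TTCCNGGAA was in none of the windows of the 10 genes, those of SOCS3 included, and in 1.15% of 35116 windows. The looser palindrome TTCNNNGAA, which includes the stricter one, was in 7.66% of windows, and among the 10 genes LIFR held it, in 2 windows. These matches are shown because LIFR was the gene that held them, with the letters in capitals, 5′ to 3′ on the minus strand.
LIFR chr5:38557631-38557659: gctttggagtTTCATCGAAaggtctttaa
LIFR chr5:38595552-38595580: ccattactagTTCCTTGAAccacaatcca
Both motifs read the same on either strand, and a match or its lack describes these windows only.

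The wider pathway was read from 12 lists with 142 genes, chosen with earlier results of these data known. Without the 10 genes, 80 of 132 were tested, and 7 were called higher and 12 lower with FAT4 siRNA (23.8%, against 25.9% of all genes tested). Their median log2 fold change was -0.05, against -0.01 for all genes tested. DESeq2 called 4 higher and 4 lower, against 599 and 635 of all 13712 genes tested.

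The proteases that release IL6R from the cell surface went opposite ways. ADAM10 fell by 0.98 on the log2 scale with FAT4 siRNA (SE 0.0972, edgeR adjusted p = 3.03e-21), to 77.6 CPM against 158 CPM in control at 48 h and 68.9 against 132 CPM at 24 h. ADAM17 rose by 0.57 (SE 0.0997, edgeR adjusted p = 3.49e-07), to 120 CPM against 71.8 CPM at 48 h and 79.9 against 60.9 CPM at 24 h. DESeq2 called both (adjusted p = 1.99e-11 and 0.00173). RHBDF2, which brings ADAM17 to the cell surface, had a log2 fold change of 0.35 and passed the edgeR test (adjusted p = 0.0390) but not DESeq2 (adjusted p = 0.302). After the GC and length correction its log2 fold change was 0.62. The ubiquitin ligase STUB1 fell by 0.61, and by 0.29 after that correction. Of the 7 genes of shedding and trafficking, 2 were called higher and 2 lower (57.1%, against 25.9% of all genes tested), with a median log2 fold change of 0.20 against -0.01. DESeq2 called 3.

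Among other cytokine receptors, the leptin receptor LEPR, a class I receptor built like gp130, had the largest fitted change between the siRNAs. It had 74 and 23 counts at 48 h and 29 and 23 at 24 h in FAT4 siRNA and control, a log2 fold change of 1.55 (SE 0.337, edgeR adjusted p = 7.05e-05). The erythropoietin receptor EPOR fell by 0.71 (edgeR adjusted p = 0.000633), so 2 of the 8 tested class I receptors outside the IL6 family were called, a share close to the 25.9% of all genes tested. IL1RAP, the accessory chain of the IL1 receptor, rose by 0.51 and IL17RC fell by 0.40, and IL17RC was not called after the GC and length correction (edgeR adjusted p = 0.572). Among the receptors of interferons and of the IL10 family, IFNAR1 rose by 0.40 and IL28RA, the interferon lambda receptor, fell by 0.63. DESeq2 called IL1RAP and IFNAR1 but not EPOR, IL17RC or IL28RA, and gave LEPR no adjusted p.

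Of the signalling genes, TYK2, a JAK family kinase, fell by 0.42 (edgeR adjusted p = 0.000297), and it was not called after the GC and length correction (edgeR adjusted p = 0.147). None of the 5 tested STAT genes was called by edgeR, against 25.9% of all genes tested, and 1 had an unadjusted p under 0.05. DESeq2 called 0 of the 5, against 1234 of all 13712 genes tested. In the SOCS family, SOCS2 fell by 0.81 and SOCS7 by 0.44, the opposite of SOCS3, and the median over 8 genes was -0.06. For the siRNA edgeR called 1 of the family higher and 2 lower (37.5%, against 25.9% of all genes tested). DESeq2 called 0 of the SOCS family for the siRNA, against 1234 of all 13712 genes tested. It had 1 of the family at an unadjusted p under 0.05, and gave SOCS2 no adjusted p. STAM2, an endosomal sorting adaptor that binds JAKs, rose by 0.81 (edgeR adjusted p = 1.44e-09), and PIAS2, of the family of STAT inhibitors, had a log2 fold change of -0.30 (edgeR adjusted p = 0.0481, DESeq2 adjusted p = 0.338).

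Of 21 tested textbook STAT3 targets, 2 were called higher and 3 lower with FAT4 siRNA, a share of 23.8% that is near the 25.9% of all genes tested, and the median was 0.08. DESeq2 called 1 of them, CEBPB, against 1234 of all 13712 genes tested. In edgeR the transcription factor CEBPB fell by 0.82 (edgeR adjusted p = 5.84e-15, and -0.48 after the GC and length correction), the NF-kappaB cofactor BCL3 by 0.82 and the kinase PIM1 by 0.57, while SOCS3 rose. DESeq2 did not call BCL3 (adjusted p = 0.237), PIM1 (0.140) or SOCS3 (0.308). BCL3 was also not called after the GC and length correction (edgeR adjusted p = 0.194).

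**Figure D4:**
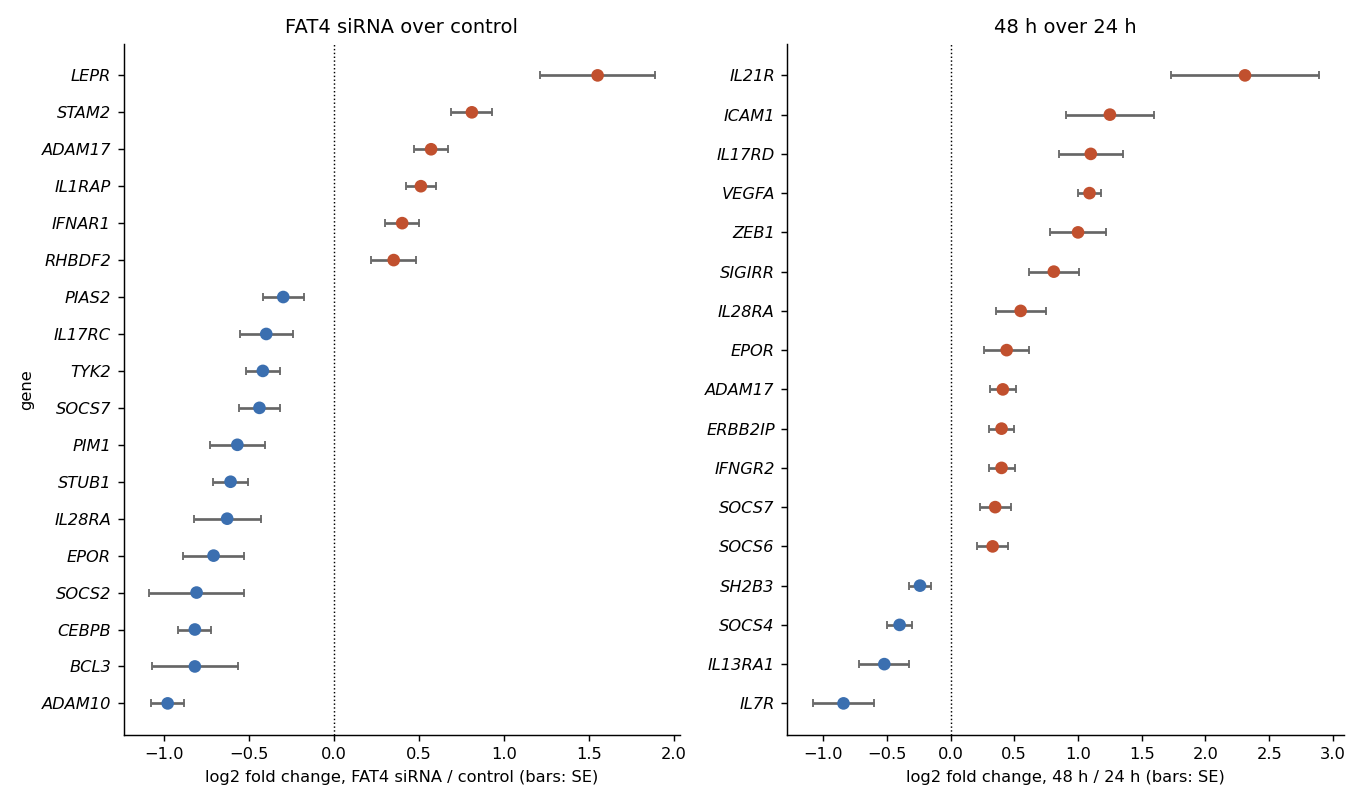
Fitted log2 fold changes with their SE for genes of the wider lists, other than the 10, that edgeR called and that are reported here, at most 4 per list and comparison. FAT4 siRNA over control is on the left and 48 h over 24 h on the right, and the left panel runs from LEPR at 1.55 to ADAM10 at -0.98.

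With time, 14 of the 80 genes rose and 9 fell (28.7%, against 26.6% of all genes tested). Of the STAT3 targets, SOCS3 included, edgeR called 4 higher and 4 lower. Among the higher ones, VEGFA, the vascular growth factor, rose by 1.09 at 48 h (edgeR adjusted p = 2.94e-29) and ICAM1, an adhesion receptor for leukocytes, by 1.25. The interleukin 21 receptor IL21R rose by 2.31 on few reads, with 16 and 4 counts at 48 h and 24 h with FAT4 siRNA and 28 and 5 in control. The interleukin 7 receptor IL7R fell by 0.84 (edgeR adjusted p = 0.00406). Of the 8 SOCS family genes, edgeR called SOCS6 and SOCS7 higher and SOCS3 and SOCS4 lower. DESeq2 called SOCS4 alone (adjusted p = 0.0257, against 0.240 for SOCS6 and 0.223 for SOCS7), and SOCS6 was not called after the GC and length correction (edgeR adjusted p = 0.104). DESeq2 also did not call ICAM1 (adjusted p = 0.212) or IL7R (0.192). ADAM17 rose by 0.41 with time as well.

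Genes whose profile over the 4 libraries was nearest to IL6R, by Euclidean distance of centred log2 CPM plus 1 among genes of at least 5 CPM on average, were TNFRSF12A (distance 0.117), MRGPRF (0.253) and NT5E (0.610). TNFRSF12A, the TWEAK receptor, was at 43.7 and 13.6 CPM at 48 h and at 71.6 and 32.0 CPM at 24 h in FAT4 siRNA and control. Nearest to IL20RB were AKNA (0.416), ATF5 (0.457) and NCRNA00263 (0.465). ATF5, a stress-induced transcription factor, was at 969 and 640 CPM at 48 h and at 249 and 237 CPM at 24 h.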

How the data were processed

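Per the labels' protocols, RNA of 4 A673 samples was extracted with TRIzol and sequenced from stranded mRNA libraries. The authors deposited raw whole-number counts of reads per gene, 1 library per file. CASAVA 1.8.2, TopHat2, SAMtools, HTSeq and the build hg19 are named in the submitters' processing notes, with no settings. Their annotation, strand setting and counting mode were not given in the sources used here, which leaves overlapping genes uncertain. Each file ends in 5 entries that name no gene, which stayed out of all totals. Reads outside genes were 19.48% to 20.54%.

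edgeR 4.0.16 in R 4.3.3 was run on these counts with TMM scaling and filterByExpr (minimum count 10, total 15). The quasi-likelihood model had an siRNA term and a time term and used the 4 libraries together, with 1 residual degree of freedom and infinite prior degrees of freedom. Two-sided p-values per term were Benjamini-Hochberg adjusted over 13712 genes, with a threshold of 0.05. Log2 ratios used a pseudocount of 1 CPM and understate changes of low genes, and exact 95% intervals cover counting error only. DESeq2 1.42.0, RLE and upper-quartile scaling, other filters and pseudocounts, a model without the other factor, and natural splines of GC content and length (5 and 4 degrees of freedom, 95.3% of genes matched) were alternatives. GENCODE release 29 and RefSeq gave lengths and sequences. Their build is GRCh38 and not hg19, and coordinates printed with a promoter are RefSeq's.

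The members and lists were chosen with earlier results of these data known. Named genes were FAT4, the 10 members, up to 4 called genes per list and comparison with the largest fold change, and the 3 nearest profiles. Receptors, ligands and neighbours at or near 0 were named after their values were seen. A few list genes are not reported here.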

Additional observations from a re-analysis of the deposited data

Results flagged for a closer look

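Some genes moved in opposite directions in the 2 groups of a contrast, each with 1 library a group, and none of these differences was tested. Values are log2 of the plain CPM ratio. For FAT4 siRNA over control, values were -0.27 at 48 h and 0.10 at 24 h for IL6ST, -0.08 and 0.21 for LIFR, 0.15 and -0.62 for IL11RA, -0.17 and 0.07 for JAK1, and -0.23 and 0.02 for JAK2. The ratio of 48 h to 24 h was -0.05 with FAT4 siRNA and 0.32 in control for IL6ST, and -0.06 and 0.17 for JAK1.

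The counting interval of the difference between the 48 h and 24 h siRNA ratios left out 0 for IL6ST (-0.51 to -0.23), LIFR (-0.40 to -0.18) and JAK1 (-0.27 to -0.19). It held 0 for IL11RA (-0.09 to 1.64) and JAK2 (-0.54 to 0.04).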

How the results depend on the processing

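No pairing beyond that by time was possible because the labels give no replicate numbers and each siRNA and time has 1 library. The time term already sets the siRNAs against each other within a time. Leaving out a library leaves the fit no residual and was not run. In the siRNA comparison DESeq2 called 1234 genes against 3555 by edgeR, and the model without time called 0 (1706 at an unadjusted p under 0.05). In the time comparison DESeq2 called 1176 against 3646, and the model without siRNA called 50. Higher calls made up 51.9% of time calls, against 65.2% with upper-quartile scaling, 34.0% after the GC and length correction and 92.0% without siRNA in the model. For the siRNA they made up 45.7%, against 56.4% after that correction.

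Among the wider lists without the 10 genes, where edgeR called 7 higher and 12 lower for the siRNA and 14 and 9 for time, DESeq2 called 4 and 4 for the siRNA and 2 and 5 for time. The model without the other factor called 0 and 0 for the siRNA (12 at an unadjusted p under 0.05) and 1 and 0 for time (12 likewise). With the GC and length correction 11 rose with the siRNA and 14 fell with time. That correction turned the siRNA change of LIFR to -0.03 and the time change of JAK1 to -0.01, and without TMM factors the JAK1 ratio of 48 h to 24 h with FAT4 siRNA was 0.00 in log2. The cause was not tested.

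With a pseudocount of 5 CPM, the log2 siRNA ratio of IL6R was 0.97 at 48 h and 0.92 at 24 h, and that of IL20RB was 0.86 at 48 h. The log2 ratio of 48 h to 24 h was 1.39 for IL20RB with FAT4 siRNA, and 0.55 for IL20RB and -0.69 for IL6R in control. A larger pseudocount shrinks ratios of low genes by construction. Members at least 1.5-fold higher at 48 h than at 24 h were then 1 with FAT4 siRNA and 0 in control, in place of 2 and 1. Among genes of at least 5 CPM the number was 1 with FAT4 siRNA, since IL11RA was filtered out. The order of levels kept 4 of 10 places with median transcript lengths. IL6R and IL20RB kept their siRNA and time directions under every alternative run.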

Other observations

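Of the 24 class I cytokine receptors outside the IL6 family, 10 were listed at 0 in all 4 libraries. They included CSF2RA, CRLF2, IL3RA and IL9R, which like CD99 lie in the pseudoautosomal regions shared by the X and Y chromosomes. Since a marker of this tumour type is among the genes at 0, these zeros are given as listed and not as absence of the transcript.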
